A study of Mus musculus with 4 samples.

Results

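The immediate early AP-1 and stress genes Fos, Fosb, Jun, Junb, Jund, Egr1, Atf3, Ier2, Dusp1 and Nr4a1 were taken by symbol, 10 of 32285 genes in the table, and all 10 were found. They were read in droplet scRNA-Seq of YUMMER1.7 tumors, a mouse melanoma line grown under the skin of young adult male wild-type C57BL/6J mice. Each of 2 libraries (the long cohort, with more doses and a later harvest, and the short cohort) pooled tumors given isotype control IgG1, anti–PD-1 (clone RMP1-14), anti-MIF (clone IIID.9) or both antibodies, and hashtag antibodies told these 4 arms apart. Another hashtag, named anti-PD1-MIF-DDT in the files, entered no test. The hashtags did not tell mice apart, so each arm was 1 sample in each cohort, and cohort, library and harvest time cannot be told apart. P-values therefore measure only the spread between arms.

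Immediate early genes are switched on within minutes of a signal without new protein synthesis, by transcription factors already present in the cell. Fos and Jun family proteins pair to form AP-1, a transcription factor that acts in growth, cytokine and stress responses. Atf3 is a stress-induced factor of the same leucine zipper class, Egr1 is a zinc finger factor, Nr4a1 is a nuclear receptor induced in T cells by antigen receptor signals, Ier2 is a nuclear protein of the early response, and Dusp1 is a phosphatase that switches off MAP kinases. In tissue studies the same genes are also known to be induced while cells are being freed from the tissue. Here the tumors were digested for 30 min at 37 °C before sorting, in every arm, and the part that digestion played in any level was not tested.

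The long library held 2516 barcodes with 23702910 UMIs (unique molecular identifiers, each a counted RNA molecule), and the short library held 4987 barcodes with 31799441 UMIs. After hashtag and quality filters, 1671 long and 3119 short cells of the 4 arms remained, and 20 barcode sequences occurred in both libraries (12 among the kept cells). Cells were gated by UMIs into T cells (Cd3e), NK cells (Ncr1), mature dendritic cells (DCs; Ccr7 with Fscn1) and myeloid cells (at least 5 UMIs of Lyz2). The gates held 265 T, 34 NK, 103 mature DC and 764 myeloid cells in the long cohort and 305, 105, 46 and 1797 cells in the short cohort, 3419 of 4790 kept cells in all. Levels are CPM, the UMIs of a gene scaled to the total UMIs of the summed cells of an arm and lineage, and sums of fewer than 10 cells entered no test. That left 8 T, 4 NK, 4 mature DC and 8 myeloid sums.

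Marker genes checked the gates. The T gate carried 986 CPM of Cd8a in the long cohort and 678 CPM in the short cohort, against 43.5 and 52.0 CPM of Cd4, so Cd8a far exceeded Cd4 there. NK-gated cells carried 5726 and 5697 CPM of Gzma, mature DCs 961 and 775 CPM of Ccl22, and myeloid cells 485 and 414 CPM of Csf1r. Csf1r was between 0 and 10.2 CPM in the other 3 gates. The melanoma markers Mlana, Dct, Tyr, Tyrp1 and Sox10 were at 0 in all gates in both cohorts, and the highest Pmel level was 3.03 CPM. The myeloid gate also held neutrophil RNA, with S100a8 at 709 CPM in the long and 200 CPM in the short cohort.

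RefSeq promoter sequences (GRCm38.p6) were at hand for 8 of the 10 genes, those other than Ier2 and Egr1. The 250 bases before the start of Fos, Jun and Dusp1 are shown as examples of members that were lower in T cells than in myeloid cells without overlap and whose windows hold at least 1 of the motifs marked. Capitals mark TGACGTCA (the cyclic AMP response element), its half-site TGACG, the 8-letter site TGACNTCA that ATF and Jun proteins can bind, and TATAAA.
Fos, chr12:85473640-85473889, plus strand: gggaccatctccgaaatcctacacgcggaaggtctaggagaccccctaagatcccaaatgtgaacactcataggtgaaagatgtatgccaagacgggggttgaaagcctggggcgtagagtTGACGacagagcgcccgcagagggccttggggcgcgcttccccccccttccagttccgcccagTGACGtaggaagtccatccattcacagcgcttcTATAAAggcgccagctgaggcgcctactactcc
Jun, chr4:95052223-95052472, minus strand: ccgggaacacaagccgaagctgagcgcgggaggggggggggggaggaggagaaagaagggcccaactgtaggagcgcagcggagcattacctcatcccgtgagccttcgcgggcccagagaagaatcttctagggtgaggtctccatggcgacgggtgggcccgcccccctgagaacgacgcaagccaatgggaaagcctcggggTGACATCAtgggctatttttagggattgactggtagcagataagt
Dusp1, chr17:26508473-26508722, minus strand: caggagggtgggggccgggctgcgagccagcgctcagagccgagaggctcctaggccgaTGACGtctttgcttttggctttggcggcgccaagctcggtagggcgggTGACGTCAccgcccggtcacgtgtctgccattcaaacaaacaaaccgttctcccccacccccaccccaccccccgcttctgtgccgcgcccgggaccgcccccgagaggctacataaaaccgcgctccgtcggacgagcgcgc

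TGACGTCA stood in the Dusp1 window alone among the 8 genes, and in 1.55% of all 32851 promoter windows searched on both strands. The half-site TGACG, which overlaps TGACGTCA, stood in 6 of the 8 (Fos, Fosb, Junb, Atf3, Dusp1 and Nr4a1) and in 17.8% of all windows. TGACNTCA stood in Dusp1, where it is the same match as TGACGTCA, and in Jun, against 7.49% of all windows. TATAAA, read on the gene's own strand only, stood in Fos and in 7.59% of all windows. The AP-1 site TGANTCA and the CArG box, the site of serum response factor, stood in none of the 8, against 6.75% and 1.47% of all windows. The EGR site GCGGGGGCG stood in Fosb and Nr4a1, 2 of the 8, and in 2.57% of all windows. In the GENCODE vM21 annotation of the same build, the genes lie at chr12:85473890-85477273 (Fos), chr4:95049034-95052222 (Jun) and chr17:26505590-26562128 (Dusp1). The RefSeq start of Dusp1 lies inside its longer GENCODE span, so the window shown is within that span and not before it. Dusp1 shares its span with 2 other records on its own strand, so its UMIs are less certain than those of Fos, which overlaps no other gene.

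The first comparison asked in which of the gated lineages these genes were most abundant. In the fit over arms, all members but Jund and Egr1 were lower in T cells than in myeloid cells, by the most for Atf3 and Fos, and Jund was higher. Arm by arm the 8 lower members were lower in all 8 arms, except Fosb in the long isotype arm (42.3 CPM in T and 28.9 CPM in myeloid cells). In the fit with the arm as a block, 9 of the 10 members passed an adjusted p of 0.05 (8 lower and 1 higher), where 61.9% of the 8474 genes tested did (30.8% lower and 31.1% higher). The median log2 fold change of the members was -1.69, against 0.03 for all genes. The plot of levels by lineage shows each arm.

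**Figure D1:**
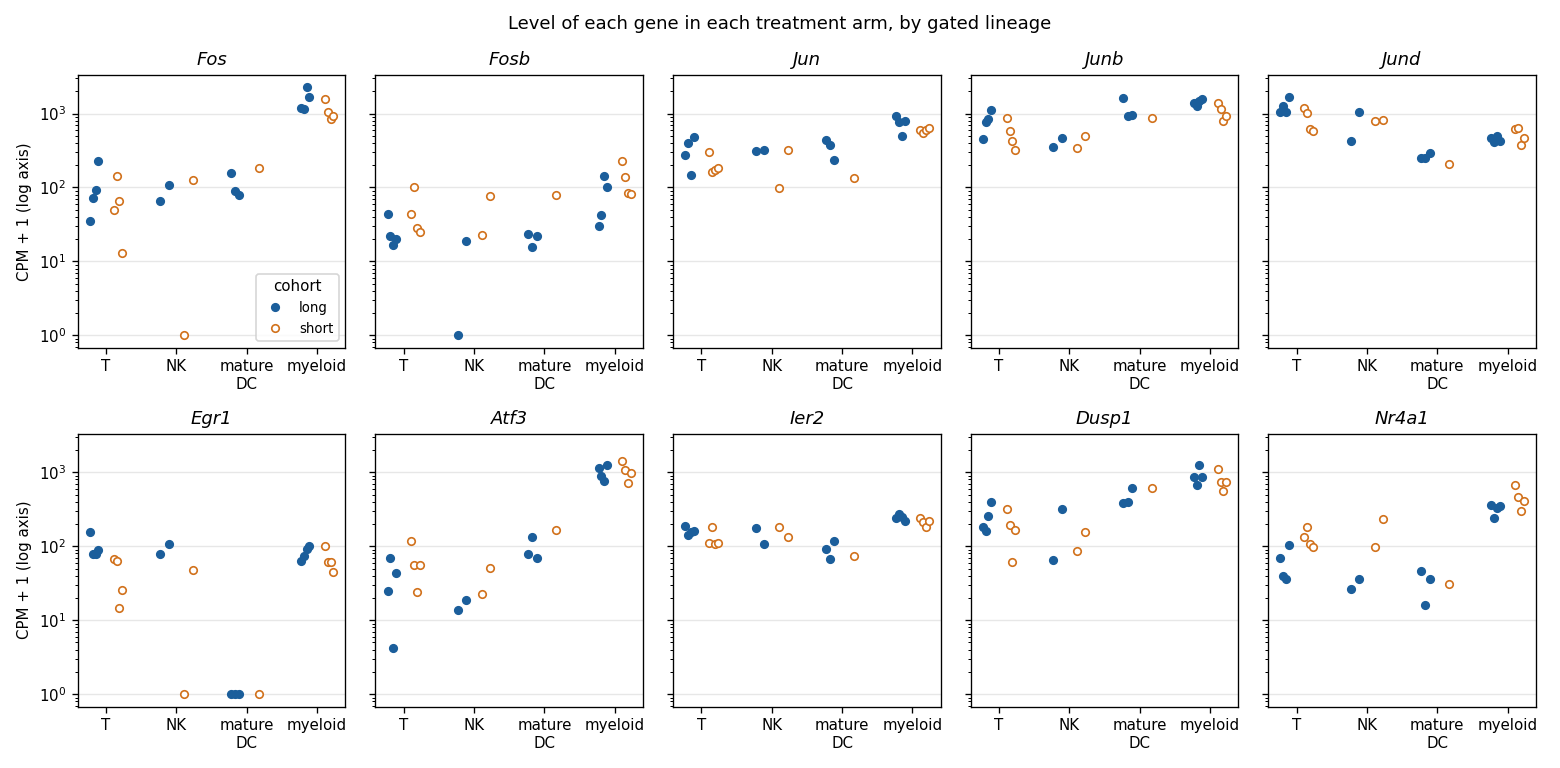
Level of each gene (CPM + 1, log axis) in every arm and gated lineage with at least 10 cells, with filled points for the long cohort and open points for the short cohort. Fos and Atf3 in the 8 myeloid sums (854 to 2267 and 723 to 1436 CPM) sit above all sums of the other lineages, and Egr1 is at 0 in the 4 mature DC sums.

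Fos, the founding member of its family, stood at 1173, 1144, 2267 and 1696 CPM in long myeloid cells given isotype, anti–PD-1, anti-MIF and both antibodies, and at 1585, 1042, 854 and 913 CPM in short myeloid cells. In T cells of the same arms it stood at 34.4, 70.1, 92.1 and 225 CPM in the long cohort and at 48.7, 141, 63.9 and 12.2 CPM in the short cohort. Every T sum was below every myeloid sum. The log2 fold change was -4.29 ± 0.26 (SE; edgeR adjusted p = 1.8e-15). It was -4.33 ± 0.28 in the long cohort alone and -4.23 ± 0.31 in the short cohort alone. Fosb, a Fos relative that also pairs with Jun proteins, ranged from 15.9 to 100.1 CPM over the 8 T sums (median 25.8) and from 28.9 to 230 CPM over the 8 myeloid sums (median 92.7). The Fosb ranges overlapped, and its log2 fold change was -1.71 ± 0.26 (adjusted p = 1.3e-06).

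The 3 Jun genes did not move together. Jun, the main Fos partner, ranged from 146 to 474 CPM in T cells (median 229.9) and from 488 to 916 CPM in myeloid cells (median 615), without overlap. Its log2 fold change was -1.68 ± 0.17 (adjusted p = 4.7e-10). Junb, which can restrain Jun and acts in lymphocyte differentiation, ranged from 322 to 1123 CPM in T cells (median 676) and from 796 to 1589 CPM in myeloid cells (median 1320.0), with overlap, at -1.19 ± 0.14 on the log2 scale (adjusted p = 1.2e-08). Jund, the Jun gene that most cells express without stimulation, went the other way. It stood at 1058, 1264, 1046 and 1654 CPM in long T cells of the isotype, anti–PD-1, anti-MIF and combination arms, against 463, 407, 488 and 428 CPM in long myeloid cells. In the short cohort it stood at 1181, 1006, 625 and 577 CPM in T cells and at 620.0, 629, 374 and 472 CPM in myeloid cells, so the ranges overlapped there but not in the long cohort. Jund was higher in T cells by 0.82 ± 0.15 (log2, adjusted p = 1.5e-05), with 1.22 ± 0.20 in the long and 0.35 ± 0.15 in the short cohort alone.

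Atf3 showed the widest difference of the members. It stood at 1127, 902, 761 and 1235 CPM in long myeloid cells of the 4 arms in the same order and at 1436, 1079, 723 and 981 CPM in short ones. In T cells it stood at 23.8, 67.5, 3.18 and 42.03 CPM in the long cohort and at 115.7, 55.1, 22.8 and 54.7 CPM in the short cohort, all below the myeloid sums. The log2 fold change was -4.89 ± 0.23 (adjusted p = 4.2e-18). Nr4a1 ranged from 34.9 to 181.5 CPM in T cells (median 100.2) and from 242 to 682 CPM in myeloid cells (median 352), without overlap, at -2.41 ± 0.19 (adjusted p = 1.9e-12). Dusp1 ranged from 59.3 to 389.7 CPM in T cells and from 556 to 1258 CPM in myeloid cells, also without overlap, at -2.32 ± 0.16 (adjusted p = 5.0e-14). Ier2 ranged from 105 to 185 CPM in T cells and from 183 to 269 CPM in myeloid cells, barely overlapping, and was lower in T cells by a log2 fold change of -0.91 ± 0.14 (adjusted p = 1.4e-06).

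Egr1 was the member that did not pass the test between T and myeloid cells. It stood at 153, 77.9, 77.8 and 87.9 CPM in long T cells of the isotype, anti–PD-1, anti-MIF and combination arms and at 62.3, 73.4, 91.0 and 99.4 CPM in long myeloid cells. In the short cohort the T values were 67.0, 61.3, 13.7 and 24.3 CPM and the myeloid values 99.8, 60.0, 61.0 and 43.7 CPM. The log2 fold change was -0.36 ± 0.22 (adjusted p = 0.16). Without the long isotype arm, the arm with the highest T value, it was -0.66 and passed the test. In the short cohort alone it was -0.86 and passed, and in the long cohort alone it was -0.03 ± 0.23 and did not pass.

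In mature DCs, which are dendritic cells that have taken up the Ccr7 program for migration to lymph nodes, 9 of 10 members were lower than in myeloid cells, where 46.3% of the 8474 genes tested passed (27.0% lower and 19.3% higher). The members' median was a log2 fold change of -1.62, and the median of all genes tested was -0.19. Egr1 had 0 UMIs in each of the 4 mature DC sums of at least 10 cells, 1048643 UMIs in all, while myeloid cells of those arms stood at 90.7 CPM. Against the floor of 3 UMIs over these sums, Egr1 was at least 31.7-fold lower, and the exact 95% counting interval gave a lower limit of 25.7-fold. Of the mature DC UMIs, 658779 were of the long anti-MIF arm, so this bound rests mostly on that arm. In the long isotype arm alone the floor was 33.5 CPM, against 62.3 CPM in myeloid cells. The remaining mature DC sums, of 6 to 9 cells, held 3 Egr1 UMIs, all in the long combination arm, and over all 8 arms the myeloid level was 33.5 times the mature DC level (exact 95% interval, 11.4 to 162). Short mature DCs of the other hashtag, which entered no test, also held Egr1 UMIs, given with that hashtag below.

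Fos stood at 156.5, 89.0 and 78.9 CPM in long mature DCs of the isotype, anti–PD-1 and anti-MIF arms and at 181 CPM in the short isotype arm, all below the lowest myeloid sum, at a log2 fold change of -3.60 ± 0.36 (adjusted p = 8.6e-10). Nr4a1 was lower by -3.35 ± 0.33 (adjusted p = 6.2e-10) and Atf3 by -3.27 ± 0.30 (adjusted p = 9.6e-11). Fosb (-1.81), Ier2 (-1.44), Jun (-1.31), Jund (-1.08) and Dusp1 (-0.97) were lower by smaller log2 fold changes. Junb stood at 1598, 927, 967 and 870 CPM in the same 4 sums, of which the first lay just above the myeloid range and the others within it, at -0.40 ± 0.19 (adjusted p = 0.080). Without the long isotype arm it was -0.62 and passed. The mature DC gate had the lowest Jund level of the lineages, between 205 and 294.5 CPM, below every T and every myeloid sum. The plot of fold changes sets the lineages side by side.

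**Figure D2:**
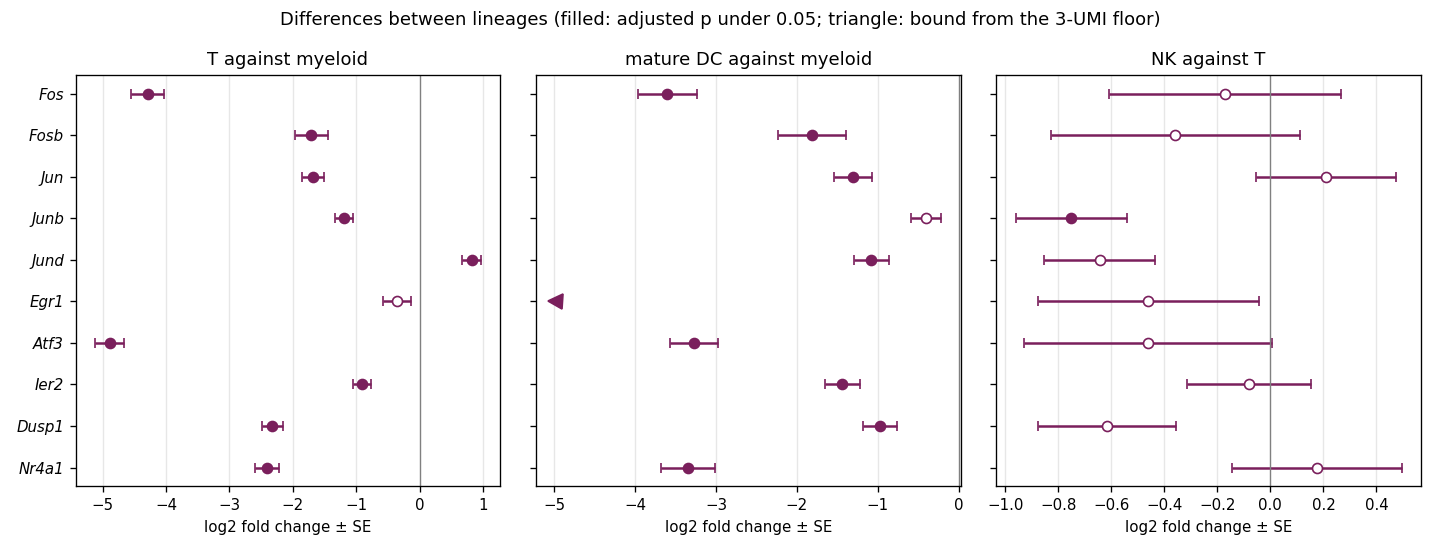
Log2 fold change with its SE for each gene in T against myeloid, mature DC against myeloid, and NK against T sums (axes differ between panels), filled where the edgeR adjusted p was under 0.05. The triangle for Egr1 in mature DCs is the bound from the 3-UMI floor, 31.7-fold; Jund alone lies right of 0 in T against myeloid cells, and Junb alone is filled in NK against T cells.

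NK cells, cytotoxic lymphocytes that need no antigen receptor, were compared with T cells over 4 sums. Of the 10 members, 1 passed the test, Junb, where 7.75% of 8474 genes did (3.25% higher and 4.51% lower). Junb stood at 356 and 460 CPM in long NK cells given anti–PD-1 and anti-MIF and at 335 and 497.5 CPM in short NK cells given isotype and anti–PD-1, at a log2 fold change of -0.75 ± 0.21 against T cells (adjusted p = 0.021). This call was lost when either cohort was taken alone, with 2 NK sums in each. Junb was then at -0.94 ± 0.32 in the long (edgeR adjusted p = 0.12) and at -0.55 ± 0.24 in the short cohort (adjusted p = 0.24). The call was also lost without the long anti–PD-1 (-0.65), long anti-MIF (-0.64) or short isotype arm (-0.62). Jund was at -0.64 ± 0.21 (adjusted p = 0.054), and at -0.71, past the test, without the short combination arm. Fos stood at 63.6, 106, 0 and 125 CPM in the same 4 sums, 3 of them within the T range. The short isotype value of 0 rests on 92423 UMIs, which allows up to 32.5 CPM by the 3-UMI floor (exact Poisson 95% interval, up to 39.9 CPM).

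In order of level over pooled cells of the gates, all members but Jund and Egr1 were highest in myeloid cells in both cohorts. The 1348 kept cells in no gate were not tested. Pooled, they held Fosb at 153 CPM in the long and 159 CPM in the short cohort, and Egr1 at 134 and 91.5 CPM. These levels were above those of every gate, and no other member was above every gate in both cohorts. Pooled over arms, T, NK and mature DC levels of Fos lay within counting error of each other (94.9, 102 and 92.7 CPM in the long cohort, with exact Poisson 95% intervals of 80.6 to 111, 65.2 to 152 and 74.6 to 114 CPM). Of the 103 long mature DCs, 69 were of the anti-MIF arm. In the isotype arms Fos was lower in T cells than in mature DCs. The long intervals were 18.3 to 58.8 and 85.5 to 262.5 CPM, and the short ones 21.0 to 96.0 and 122 to 259 CPM. In the other arms these intervals overlapped. Jund ran T, NK, myeloid, mature DC from high to low in both cohorts, at 1196, 725, 468 and 301 CPM in the long cohort and 913, 778, 557 and 212 CPM in the short cohort. These intervals cover counting error only.

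In droplet data, free RNA from lysed cells can enter any droplet. The 6 macrophage markers Adgre1, C1qa, Cd68, Csf1r, Fcgr3 and Ms4a7 reached 0.57% to 1.25% of their myeloid level in long T cells and 0% to 2.90% in short T cells. Fos reached 4.79% and 8.97% and Atf3 3.30% and 5.23%, above the highest marker in each cohort, while Nr4a1 (16.7% and 31.9%), Dusp1 (21.5% and 22.8%), Jun (47.9% and 31.6%) and Junb (53.5% and 50.5%) stood further above. In long mature DCs the highest markers, Ms4a7 at 9.63% and Cd68 at 5.06%, were above Fos (4.68%), and Ms4a7 was also above Nr4a1 (9.07%) and Egr1 (3.46%), while Atf3 was at 9.74%. In short mature DCs the highest marker, Cd68 at 4.54%, was below Fos (9.35%), Atf3 (13%) and Nr4a1 (15.1%). In NK cells the highest marker was Fcgr3, which NK cells also express, at 4.53% and 4.77%, against 5.14% and 9.12% for Fos and 5.80% and 3.47% for Atf3. The part of free RNA in the low levels of Fos, Atf3 and Nr4a1 outside myeloid cells was not tested.

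Shares of cells with a UMI separated myeloid from T cells for Fos, Atf3 and Jund in the same direction as the levels. After each cell was thinned to 2000 UMIs, which left out 42 or fewer cells in each gate and cohort, Fos was found in 81.5% of long myeloid cells (exact 95% interval, 78.6% to 84.2%) and in 13.8% of long T cells (9.70% to 18.8%). The unthinned shares were 91.4% and 24.5%, at median depths of 11032 and 5228 UMIs. Csf1r, which T cells should lack, was found in 1.26% of long T cells after thinning. Atf3 was found in 63.5% of long myeloid and 4.6% of long T cells, and Jund in 55.2% and 82.8%. Egr1 was found in 13.6% of long myeloid and 14.6% of long T cells, and in 0 of 101 long mature DCs, which allows a share of cells with a UMI of up to 2.97% at this depth (exact 95% interval, up to 3.59%), and 2 of 103 held a UMI before thinning. Of the 10 members, the median myeloid cell held 5 in both cohorts, and the median T cell held 3 in the long and 2 in the short cohort.

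**Figure D3:**
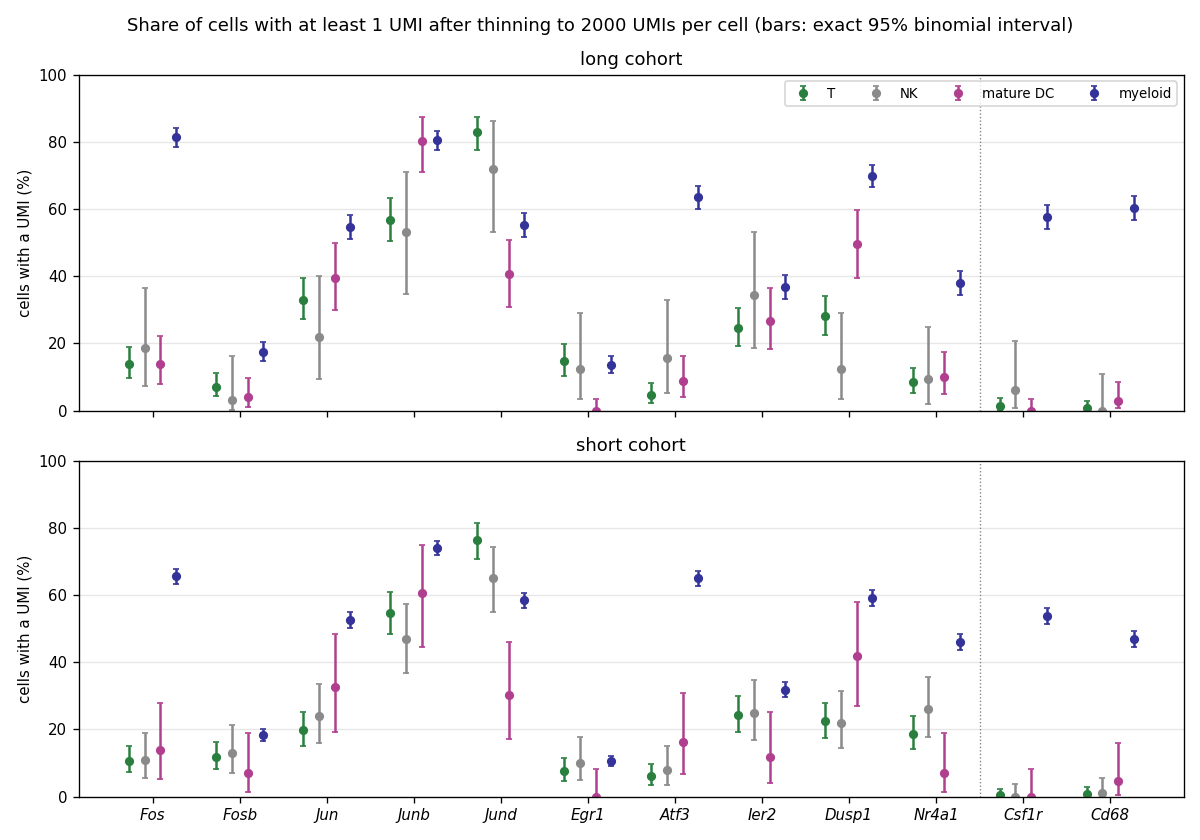
Percent of cells with at least 1 UMI of each gene after thinning to 2000 UMIs per cell, by lineage and cohort, with exact 95% binomial intervals. Csf1r and Cd68, right of the dotted line, show the share in lineages that should lack them; Fos and Atf3 are found in a larger share of myeloid cells than of the other lineages, and Jund in a larger share of T cells (82.8% long) than of myeloid cells (55.2% long).

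Within myeloid and T cells, most members were found more often in cells with a Fos UMI, at equal depth. Among thinned long myeloid cells, Dusp1 was found in 75.2% of the 614 cells with a Fos UMI and in 46.8% of the 139 without, and Junb in 84.7% and 61.9%. Egr1 was found in 13.8% and 12.2% of the same cells. In long T cells, 33 with a Fos UMI and 206 without, Jun was found in 51.5% and 30.1%, and in short T cells Dusp1 was found in 42.9% and 20.0% of the 28 with and the 235 without. Cells of an arm are not replicates, so these shares are a description.

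The myeloid gate was not uniform in these genes. Myeloid cells with at least 5 UMIs of the C1q genes, which mark macrophages, had less Jun, Jund, Atf3, Ier2, Dusp1 and Nr4a1 than myeloid cells without a C1q UMI in 4 of 4 arms in both cohorts. Over pooled long cells Nr4a1 stood at 217 against 500 CPM and Jund at 359 against 632 CPM, and over pooled short cells at 280 against 551 CPM and 353 against 624 CPM. Fosb went the other way, at 143 against 71.2 CPM in the long cohort (higher in 3 of 4 arms) and 244 against 116 CPM in the short cohort (4 of 4 arms). Fos was lower in 3 of 4 arms in each cohort although its pooled long level was 2040 against 1850 CPM, and 291 of the 381 long C1q cells were of the anti-MIF arm. The groups also differed in depth: the 381 long C1q cells held 5043108 UMIs, and the 312 long cells without a C1q UMI held 2961622. In the 255 long myeloid cells with the fewest UMIs, Nr4a1 stood at 513.5 CPM and Jund at 659 CPM. In the 255 with the most UMIs they stood at 221 and 352 CPM, while Fosb went from 101 to 125.5 CPM. These splits were described and not tested, and the part of depth in them was not tested.

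The summed level of the 10 members was lower in the deepest cells. In long T cells the sum was 3710 CPM in the 89 cells with the fewest UMIs and 2561 CPM in the 89 with the most, and in long myeloid cells it was 7968 and 6432 CPM. Between equal groups of cells with the lowest and the highest mitochondrial share it was 7628 and 6937 CPM in long and 5989 and 6297 CPM in short myeloid cells, 3411 and 2968 CPM in long T cells, and 2454 CPM at both ends in short T cells, with no common direction. Each of the myeloid sums by depth or mitochondrial share, from 5868 CPM upward, was above each of those in T cells, up to 3710 CPM.

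Other genes of the early response were read from lists drawn up for this purpose. Of 9 tested further AP-1 family genes, 8 were lower and 1 higher in T than in myeloid cells, where 30.8% of all genes were lower and 31.1% higher. Batf, which pairs with Jun proteins in effector T cells, was higher in T cells by 1.74 ± 0.17 (log2, adjusted p = 1.2e-10). Batf2 and Batf3 had 0 UMIs in the 8 T sums and were at least 24.6-fold and 19.4-fold lower, and Maff was at -1.67 ± 0.37 (adjusted p = 2.1e-04). In mature DCs, 1 of 9 was higher and 5 were lower than in myeloid cells, beside 19.3% and 27.0% of all genes. The higher one was Batf3, a factor of conventional DCs, at 3.46 ± 0.23 (adjusted p = 3.0e-11), and Jdp2 (-3.67 ± 0.41) and Fosl2 (-2.59 ± 0.39) were among the lower. Batf had 1 UMI in the mature DCs of all 8 arms.

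Of 12 other immediate early genes, 7 were lower and 3 higher in T than in myeloid cells (30.8% and 31.1% of all genes). Ier3 (-4.22 ± 0.23), a survival gene, Klf4 (-3.98 ± 0.30), a zinc finger factor, Zfp36 (-3.86 ± 0.22), which destabilizes cytokine mRNA, and Egr2 (-3.38 ± 0.47) differed most on the log2 scale. In mature DCs, 6 were lower and 2 higher (27.0% and 19.3% of all genes). Nr4a3 was higher by 3.97 ± 0.20 (adjusted p = 2.1e-16), while its relative Nr4a1 was lower. Myc had 0 UMIs in the 4 mature DC sums and was at least 11.7-fold lower, Ier3 was at -3.81 ± 0.34, and Egr2 had 1 UMI in the mature DCs of all 8 arms. The median of this list in mature DCs was -1.84 as fitted and -0.83 with genes at 0 UMIs set to their bound.

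Feedback genes were mixed. Of 10 genes that restrain MAP kinase, NF-κB or cytokine signals, 6 were higher and 4 lower in T than in myeloid cells (31.1% and 30.8% of all genes), with a median of 1.51. Dusp4 (5.63 ± 0.31), Spry1 (4.73 ± 0.52) and Spry2 (2.87 ± 0.46), which limit MAP kinase signals, were higher in T cells, and Socs3 (-4.02 ± 0.27), which limits cytokine receptors, was lower. In mature DCs 4 were higher and 3 lower (19.3% and 27.0% of all genes), among them Dusp5 (2.24 ± 0.23) and Dusp4 (2.62 ± 0.67) higher and Socs3 (-1.95 ± 0.33) lower, and Dusp6, at 0 UMIs, at least 39.3-fold lower. The median in mature DCs was -0.35 as fitted and 0.99 with genes at 0 UMIs set to their bound. In NK against T cells, where 7.75% of all genes were called, 3 were lower (Spry1, at least 3.62-fold lower against the floor, Dusp4 at -3.34 ± 0.55 and Tnfaip3 at -1.01 ± 0.22) and Spry2 was higher at 2.67 ± 0.50.

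Heat shock genes are chaperones that digestion can also induce. Of 11, 6 were higher and 2 lower in T than in myeloid cells, with a median of 0.37, and this share of calls was near the 61.9% of all genes. Dnajb1 (1.68 ± 0.22) and Hsph1 (1.42 ± 0.20), both chaperones, were higher, and Hspa1a (-0.94 ± 0.30) and Hspa8 (-0.55 ± 0.12) lower. In mature DCs, where 46.3% of all genes were called, 2 were higher (Hspb1 and Hsp90ab1) and 1 lower (Dnaja1). Of 10 tested kinases and factors upstream of the early response, 2 were higher and 3 lower in T cells, beside 61.9% of all genes called in either direction, led by Mapk3 (-1.25 ± 0.15), Map2k1 (-1.17 ± 0.14), Elk4 (0.80 ± 0.21) and Mapk14 (-0.57 ± 0.15), and in mature DCs Mapk14 (-2.38 ± 0.33) and Mapk8 (-1.28 ± 0.52) were lower and Creb1 (1.13 ± 0.26) higher.

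The next comparison asked whether the antibodies changed these genes. In a fit with cohort, anti–PD-1 and anti-MIF as terms over the 8 arms, no member passed for anti-MIF in T cells or in myeloid cells, or for anti–PD-1 in either, and 0.0% of the 5510 genes tested in T cells and of the 9489 tested in myeloid cells passed. An unadjusted p under 0.05 was met by 234 genes (4.25%) for anti-MIF and 211 (3.83%) for anti–PD-1 in T cells. In myeloid cells it was met by 540 genes (5.69%) for anti-MIF and 400 (4.22%) for anti–PD-1. These shares are near what that threshold passes with no effect. DESeq2 called 0, 0, 2 and 0 genes, none a member. The members with an unadjusted p under 0.05 were Fosb and Egr1, both for anti-MIF in T cells.

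Fosb in T cells was lower with anti-MIF than without in 4 of 4 pairs of arms, at -1.24 ± 0.39 on the log2 scale (edgeR adjusted p = 1.00). In the long cohort it stood at 42.3 CPM with isotype and 15.9 CPM with anti-MIF, and at 20.8 CPM with anti–PD-1 and 19.1 CPM with both. In the short cohort these values were 42.6, 27.4, 100.1 and 24.3 CPM. Atf3 was also lower in 4 of 4 pairs, from 23.8 to 3.18 and from 67.5 to 42.03 CPM in the long and from 115.7 to 22.8 and from 55.1 to 54.7 CPM in the short cohort, with an unadjusted p of 0.054. Egr1 was lower in 3 of 4 pairs, at -0.88 ± 0.31 (adjusted p = 1.00). Over the members in T cells apart from Fosb and Egr1, the fitted changes with anti-MIF ran from -1.17 ± 0.55 (Atf3) to 0.47 ± 0.50 (Fos), and over all members those with anti–PD-1 from -0.24 ± 0.31 (Egr1) to 1.03 ± 0.49 (Fos). In myeloid cells the changes with anti-MIF ran from -0.35 ± 0.22 (Atf3) to 0.06 ± 0.25 (Fos), and those with anti–PD-1 from -0.41 ± 0.45 (Fosb) to 0.13 ± 0.22 (Atf3). Small changes could not be told from the spread between arms at this depth.

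In myeloid cells, the anti-MIF pairs of the 2 cohorts pointed apart for 5 of the 10 members (Fos, Fosb, Junb, Jund and Egr1). The share of all genes that did so was not computed. The long log2 ratios were only 0.074 and 0.071 for Jund, and 0.072 for Junb against isotype. In these pairs the counting intervals overlapped. Fos was higher with anti-MIF in both long pairs and lower in both short pairs, with mean log2 ratios of 0.75 and -0.54, and Fosb likewise, with 1.54 and -1.04. Atf3 (-0.06 and -0.56) and Ier2 (-0.11 and -0.17) had mean ratios below 0 in both cohorts. The makeup of the long myeloid gate differed between these arms, with at least 5 C1q UMIs in 13 of 74 isotype, 26 of 95 anti–PD-1, 291 of 471 anti-MIF and 51 of 124 combination cells. Within those C1q cells Fos stood at 638 and 477 CPM without anti-MIF (isotype and anti–PD-1) and at 2212 and 1907 CPM with it, and in long cells with no C1q UMI at 1184 and 1358 CPM without and 2360 and 1548 CPM with it. The neutrophil markers, none of which passed the test, had a median log2 fold change of 1.91 with anti-MIF in myeloid cells, and their part was not tested. The plot of antibody pairs shows all of them.

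**Figure D4:**
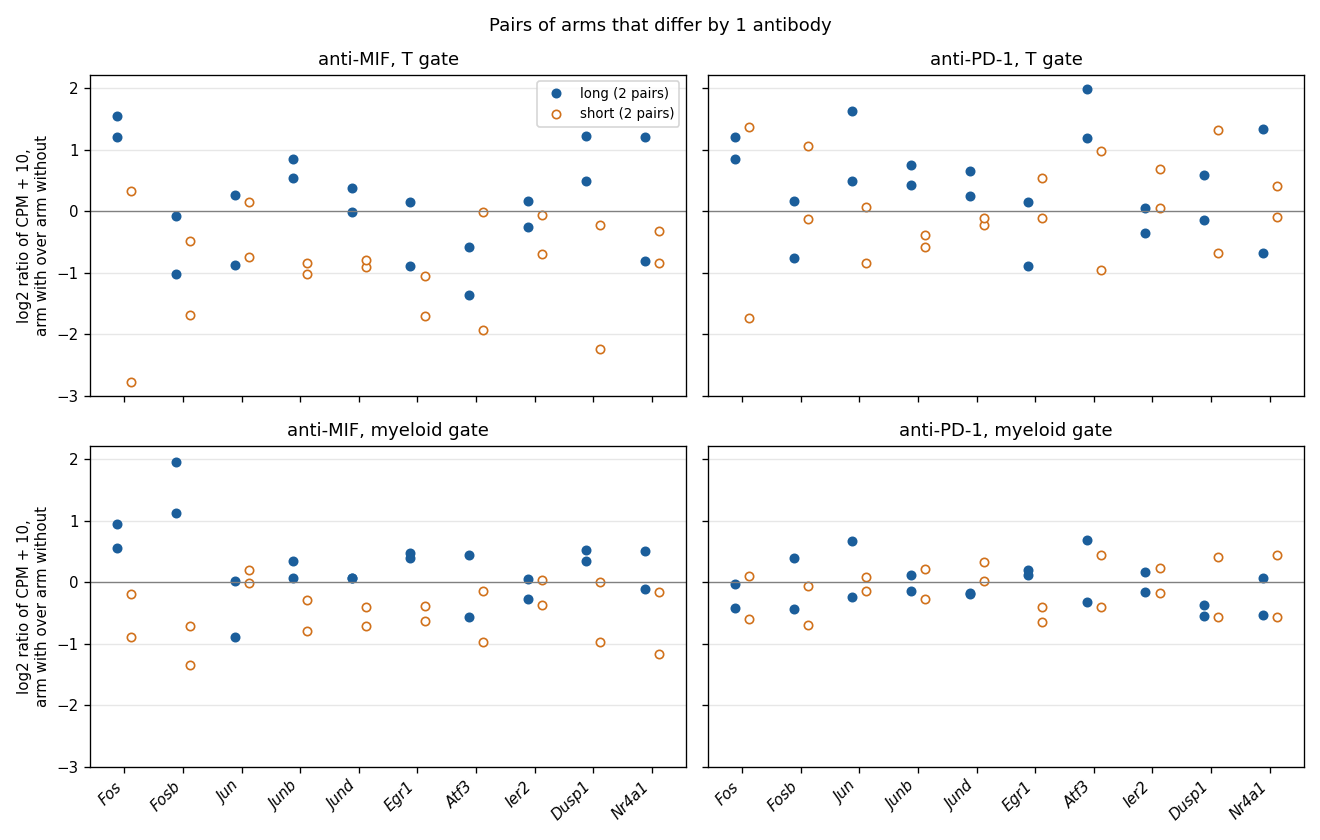
Log2 ratio of CPM + 10 between arms that differ by 1 antibody, for T cells (top) and myeloid cells (bottom), anti-MIF (left) and anti–PD-1 (right), with 2 pairs in each cohort. With anti-MIF in myeloid cells, the long pairs of Fos and Fosb lie above 0 and the short pairs below; with anti-MIF in T cells, all 4 pairs of Fosb and of Atf3 lie below 0.

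Between cohorts, 1 member passed in T cells, where 6.62% of 5510 genes did (3.32% lower and 3.3% higher). Nr4a1 stood at 68.8, 38.9, 34.9 and 103 CPM in long T cells of the isotype, anti–PD-1, anti-MIF and combination arms and at 134, 181.5, 105 and 97.2 CPM in short ones. The ranges overlapped by a single arm of each cohort, and the log2 fold change of long against short was -1.23 ± 0.33 (adjusted p = 0.043). The call was lost in 7 of the 8 fits that left out 1 arm, with log2 fold changes of -0.82 to -1.43. Egr1 in T cells was 77.8 to 153 CPM in the long and 13.7 to 67.0 CPM in the short cohort, without overlap, at 1.14 ± 0.32 (adjusted p = 0.053). Without the long anti–PD-1 arm it was 1.68 and passed. Of 7 T cell markers, 2 were called higher and 1 lower in long T cells, and 1 of 4 tested NK markers was lower. Without thinning, cells with a Cd8a and no Cd4 UMI were 203 of 265 long and 182 of 305 short T cells. Such shares depend on depth, and the median depths were 5228 and 4004 UMIs. The parts of makeup and depth in the differences of Nr4a1 and Egr1 were not tested. In myeloid cells no member passed, where 5.96% of 9489 genes did (2.79% higher and 3.17% lower). Junb was nearest, at 0.44 ± 0.18 (adjusted p = 0.15), and passed at 0.62 without the short isotype arm. The difference between T and myeloid cells was itself compared between cohorts, where 0.232% of 9477 genes passed (0.127% higher and 0.106% lower) and no member did. At an unadjusted p under 0.05 there were 603 genes (6.36%), Jund and Nr4a1 among them, and DESeq2 called 2 genes. Among the 10 members, Jund had the lowest unadjusted p in that comparison, at 0.82 ± 0.26 (adjusted p = 0.31).

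Over the 24 sums, which share 2 libraries, the members most like the mean of the other 9 in log2(CPM + 10) were Fos (Pearson r = 0.889), Atf3 (0.83) and Nr4a1 (0.801), and the least alike were Egr1 (0.422) and Jund (-0.141). Of 5841 other genes compared, the 8 most like the mean of all 10 members included Emp1 (r = 0.948), Ms4a6d, Cxcl2, Cebpb, Cd14, Clec4a1 and Cybb (0.930). Several of these, such as Cd14 and Cybb, are genes of monocytes and macrophages.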

How the data were processed

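The authors deposited filtered count matrices of UMIs for 2 libraries, made with Cell Ranger 7.1.0 and mm10 per the submitters' processing notes; whether intron reads were counted is not given in the sources used here. Cells were assigned to hashtags with HTODemux (Seurat 5.3.0, quantile 0.99), doublets and negatives were left out, and cells with 200 to 5000 genes and at most 5% mitochondrial UMIs were kept. T and NK cells had fewer than 5 Lyz2 UMIs. Mature DCs had no limit on Lyz2, so a cell with Ccr7, Fscn1 and at least 5 Lyz2 UMIs counted as a mature DC. Other cells in more than 1 gate were left out. Counts were summed by arm and lineage (at least 10 cells) and tested with edgeR 4.0.16 (quasi-likelihood, filterByExpr, TMM, Benjamini-Hochberg over all genes tested). SEs are the fold change over the square root of F. DESeq2 1.42.0, other gates, filters and normalizations, and each arm left out in turn were tried, and the fits were tested on simulated data. Fits of each cohort alone were added after seeing the data. The members and gene lists were chosen with earlier results of these data known. Named were all members, up to 4 called genes per list with the largest change, the gate markers, and the 8 genes most like the members (mean CPM at least 20), of which 1 is not reported here. Reference sequences for Ier2 and Egr1 were not used here. Intervals and floors cover counting error only.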

Additional observations from a re-analysis of the deposited data

Results flagged for a closer look

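Of 40 sets of 4 arms looked at (10 genes, T and myeloid cells, 2 cohorts), 3 held an arm whose gap to the nearest other, divided by the range, passed Dixon's 95% limit. Chance passes about 1 in 20, so 3 of 40 is near that rate. They were Egr1 in long T cells of the isotype arm (153.4 CPM), Jun in short T cells of the isotype arm (298.3 CPM) and Ier2 in short T cells of the anti–PD-1 arm (182.7 CPM).

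In 11 of 40 sets of antibody pairs, both long pairs moved one way and both short pairs the other, and these differences were not tested. The sets share arms and libraries, and neither the number expected by chance nor the share over all genes was computed. For anti-MIF, the mean log2 ratio of the long pairs minus that of the short pairs was 1.63 for Junb and 2.08 for Dusp1 in T cells, and 1.29 for Fos, 2.58 for Fosb, 0.75 for Junb, 0.63 for Jund and 0.94 for Egr1 in myeloid cells. For anti–PD-1 it was 1.08 for Junb and 0.63 for Jund in T cells, and -0.36 for Jund and 0.69 for Egr1 in myeloid cells. The 2 pairs of a cohort come from 1 library. The T gate differed in makeup between arms: of long T cells, 54 isotype and 66 anti-MIF cells had a Cd8a and no Cd4 UMI, and 1 and 15 had a Cd4 and no Cd8a UMI. In the Cd8a cells Dusp1 stood at 188.0 CPM with isotype and 107 CPM with anti-MIF, lower and not higher as in the whole gate, and in the 15 Cd4 cells at 981.5 CPM. With anti–PD-1 it stood at 111 CPM in Cd8a cells, and at 288 CPM with both antibodies.

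The other hashtag, named anti-PD1-MIF-DDT, entered no test, and its levels are set beside those of the isotype arm. In 13 of 40 values its counting interval lay above that of the isotype arm. In the long cohort these were Junb (1070 CPM), Jund (1516 CPM), Atf3 (113.5 CPM), Dusp1 (381.0 CPM) and Nr4a1 (210.8 CPM) in 22 T cells, and Fos (2289 CPM), Fosb (97.09 CPM), Junb (1716 CPM), Jund (567.9 CPM), Atf3 (1436 CPM), Dusp1 (1341 CPM) and Nr4a1 (511.3 CPM) in 213 myeloid cells. In the short cohort it was Jun in myeloid cells (763.1 CPM). In 7 of the 40 values, all in short myeloid cells, the interval lay below that of isotype: Fos (1355 against 1585 CPM), Fosb (102 against 230 CPM), Junb (1150 against 1385 CPM), Egr1 (74.4 against 99.8 CPM), Atf3 (1336 against 1436 CPM), Dusp1 (1014 against 1097 CPM) and Nr4a1 (611.5 against 682 CPM). The 40 values cover T and myeloid cells. In mature DCs of this hashtag, Egr1 had 6 UMIs in 8 short cells (124 CPM) and 0 UMIs in 4 long cells.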

How the results depend on the processing

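The number of members called in T against myeloid cells stayed at 9 or 10 over all alternatives. In mature DC against myeloid cells it was 9 or 10, without the short cohort alone, which held 1 mature DC sum. In NK against T cells it was 1 as reported, and 2 with no filter on low counts, at a stricter hashtag quantile and with at least 5 cells. Jund and Dusp1 were called in the last of these and at the stricter quantile, where Junb was lost at -0.53 in both. The count was 0 when cells with any UMI of another gate were left out, with cohort in place of the arm block and in either cohort alone. It was 0 to 2 over the fits that left out 1 arm. With at least 20 cells only 1 NK sum remained, so no count is given, and Junb was at -0.24. In T cells, long against short was 1 as reported, 4 with no filter, 0 with Lyz2 gated at 1 UMI and 0 to 1 with 1 arm left out. In myeloid cells it was 0, 1 with no filter and 0 to 1 with 1 arm left out. For anti–PD-1 in T cells it was 0, and 1 with no filter (Fos). No call of a member changed direction. The NK sums held 10 to 76 cells and the mature DC sums 11 to 69. Over all alternatives, the number of all genes called ran from 3718 to 6831 for T against myeloid (5247 as reported) and 229 to 803 for NK against T (657). For mature DC against myeloid it ran from 3043 to 4553 (3925), again without the short cohort alone. It ran from 2 to 68 for T against myeloid, long minus short (22). For long against short it ran from 107 to 593 in T cells (365) and 1 to 1249 in myeloid cells (566). For the antibodies it was 0 as reported, and up to 47 (anti-MIF in T), 64 (anti–PD-1 in T), 42 (anti-MIF in myeloid) and 17 (anti–PD-1 in myeloid). The lineages were compared within arms, with the arm as the block, and cohort in place of that block changed the count of NK against T cells as given above.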
